A study of Homo sapiens with 8 samples.

Results

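The histone genes were taken as the protein-coding genes of GENCODE release 44 (human genome build GRCh38) whose symbols begin with H1-, H2A, H2B, H3-, H3C, H4C or H4-. This rule gave 93 genes, of which 69 were replication-dependent cluster genes (H1-1 to H1-5 and the H2AC, H2BC, H3C and H4C genes) and 24 were the other, variant genes. The count tables held 60675 genes, and 90 of the 93 histone genes were matched to them by Ensembl identifier. H2AC18, H2AC19 and H2BN1 were not analysed here.

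The cells were Panc10.05, a long-established pancreatic cancer line, and a derivative made resistant to indisulam by prolonged culture in rising concentrations of it. Indisulam is a sulfonamide that acts as a molecular glue: it causes the ligase receptor DCAF15 to mark RBM39, a splicing factor, for degradation. The 8 libraries formed 4 groups of 2. Parental untreated cells had no drug, parental indisulam cells had 2 µM for 18 h, resistant untreated cells had been withdrawn from the drug (a drug holiday), and resistant indisulam cells were kept in 2 µM without a break. The length of exposure therefore differed between the lines, and the resistant line was represented by 1 culture history. The study described its repeats as technical replicates, so p-values measure the spread between these libraries only. A note on growth and treatment speaks of A549; the sample titles, which say Panc10.05, were followed.

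Histones package DNA into nucleosomes, in which the core histones H2A, H2B, H3 and H4 form the spool and the linker histone H1 binds the DNA between spools. Replication-dependent histone genes lie in clusters, are transcribed mainly in S phase and make mRNAs that end at a conserved stem-loop bound by SLBP, in place of a poly(A) tail. Variant histone genes mostly lie alone, usually make polyadenylated mRNAs and are transcribed throughout the cell cycle. The libraries were made from RNA purified on oligo-dT beads, so the reads of replication-dependent genes come from whatever of their RNA was captured that way, and the share that was not captured was not measured.

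The 3′ stem-loop was the sequence feature that separated the classes. The histone stem-loop consensus (16 bases, searched on the coding strand within 200 bases after the annotated stop codon) was found in 65 of 69 replication-dependent genes (94.2%), in 4 of 24 variant genes (16.7%) and in 1 of 19826 other protein-coding genes (0.00504%). The 4 variant genes were H2AX, H3-4, H3-7 and H1-6. Among replication-dependent genes, H3C6, H2BC10 and H4C13 had 1 mismatch to the consensus and H2BC12L had 4. The sites of the genes on which the results turn are given 5′ to 3′ on the coding strand, read from GRCh38, with the stem-loop in capitals and 5 bases on either side.
H2BC12 (chr6:27146361-27146386, minus strand): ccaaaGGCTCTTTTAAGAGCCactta
H1-2 (chr6:26055739-26055764, minus strand): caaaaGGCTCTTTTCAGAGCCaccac
H2AC6 (chr6:26124664-26124689, plus strand): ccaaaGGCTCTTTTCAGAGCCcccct
H2BC8 (chr6:26216213-26216238, minus strand): tcaaaGGCTCTTTTCAGAGCCactca
H2AC11 (chr6:27133510-27133535, plus strand): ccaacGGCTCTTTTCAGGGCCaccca
H4C8 (chr6:26285126-26285151, minus strand): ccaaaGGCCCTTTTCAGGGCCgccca
H4C9 (chr6:27139649-27139674, plus strand): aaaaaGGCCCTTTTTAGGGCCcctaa
H2AX (chr11:119094893-119094918, minus strand): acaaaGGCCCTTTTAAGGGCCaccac

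The arms of the stem differed by family. In all 14 H4 genes with a match, the stem-loop began and ended with GGCC, as in H4C8 (10 genes) and H4C9 (4 genes), and no replication-dependent gene of another family had both of these ends. The form shown for H1-2 was the most common and was found in 40 replication-dependent genes, namely 4 H1, 13 H2A, 12 H2B and 11 H3 genes. The form of H2BC12 was found in 8 replication-dependent genes, 5 of them H2B genes, and also in the variant genes H3-4 and H1-6. H2AC11 had 1 arm of each kind. H2AX, which encodes the H2A variant phosphorylated at DNA breaks and is known to make both stem-loop and polyadenylated mRNAs, carried the H4 type of arms.

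Of the 90 listed histone genes, 47 passed the filter on low counts and were tested (37 replication-dependent and 10 variant). There were 0 reads in every library for 18 genes, which allows up to 3 reads per library. They were H2AC1, H2AC7, H2BC1, H3C4, H3C7, H3C11, H4C6, H4C7 and H4C13 among replication-dependent genes, and the variants H1-7, H2AB1, H2AB2, H2AL1Q, H2AL3, H2AP, H2BW1, H2BW2 and H3-4, most of which are known from the testis. The other untested genes had at most 16 reads in a library for replication-dependent genes (H2AC16) and at most 6 for variant genes (H1-6). Of the tested genes, 32 were above the filter's cutoff in all 8 libraries. H3-7 passed only through the resistant indisulam libraries, H4C5 and H4C15 only through the resistant line, H3C12 only through indisulam libraries and H2BC13 only through untreated ones, so that a difference was built into their selection. The counts of called genes include H3C12 in both drug responses, H4C5 and H3-7 in both comparisons of the lines and H3-7 in the resistant drug response. A mean of at least 100 reads per library was reached by 14 replication-dependent and 8 variant genes, which are referred to as well measured.

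Each library had between 65266253 and 108002436 reads counted to genes. The counts leave out reads marked as duplicates (14.1% to 18.4% of reads), reads of low mapping quality (7.55% to 8.25%) and ambiguous reads (2.56% to 2.84%), each of which can lower the count of short or near-identical histone genes. RBM39 was at 331.9 and 336.5 CPM (counts per 1000000 reads of the tested genes, with TMM scaling) in parental untreated libraries at 716.2 and 731.4 CPM in parental indisulam libraries, at 298.8 and 310.9 CPM in resistant untreated libraries and at 577.4 and 591.0 CPM in resistant indisulam libraries. All 6 epithelial and ductal markers were detected, with a sum of 6323.9 to 6513.3 CPM in the parental line and 10800.5 to 12229.1 CPM in the resistant line. The leukocyte markers PTPRC and CD3E and the fibroblast marker DCN had 0 reads, the sums of the 5 leukocyte and 3 endothelial markers stayed at or under 0.194 and 0.341 CPM, and the 5 fibroblast markers reached 3.97 to 4.03 CPM in resistant indisulam libraries against at most 1.89 CPM elsewhere. The part of these marker differences in the histone results was not tested.

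Variant genes supplied most of the histone reads. The 23 listed variant genes summed to 1905.2 and 1903.3 CPM in parental untreated libraries, against 97.2 and 94.5 CPM for the 67 listed replication-dependent genes, a ratio of 19.6 and 20.1. Per kilobase of annotated exon, the highest levels in parental untreated cells were those of H2AZ1 (187.1 CPM per kb), H2AX (142.1) and H3-3B (119.8), with lower levels for H2BC12 (57.1), H2AZ2 (36.4), H3-3A (33.4), H1-2 (26), H1-10 (16.3) and H2AC11 (10.6 CPM per kb). H2AJ (6.67 CPM per kb) and H2AC6 (6.51 CPM per kb) were lower still and overlapped between libraries. H2BC12 was the highest of the replication-dependent genes, and 44.9% of its stretches of 100 bases occur elsewhere in the genome, a limit for reads that map to more than 1 place.

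The summed level of the replication-dependent genes differed by group, and different genes moved in different directions. Together they reached 97.2 and 94.5 CPM in parental untreated libraries, 116.6 and 112.8 CPM in parental indisulam libraries, 120.5 and 119.9 CPM in resistant untreated libraries and 115.5 and 115.8 CPM in resistant indisulam libraries. The parental untreated libraries were the lowest and did not overlap the other groups. H2BC12, H1-2 and H2AC6, the most abundant replication-dependent genes by count, made up 60.2% and 61.2% of that sum in parental untreated libraries, 57.4% and 56.9% in parental indisulam libraries, 68.4% and 67.8% in resistant untreated libraries and 53.4% and 52.9% in resistant indisulam libraries. The other 64 listed replication-dependent genes summed to 38.7 and 36.7 CPM, 49.7 and 48.5 CPM, 38.1 and 38.6 CPM, and 53.8 and 54.5 CPM in the same order of groups. They were higher on the drug than off it in both lines, with no overlap. In the resistant line this was partly built in, since the genes left out were the only replication-dependent genes called lower there with the drug. Sums were described and not tested.

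**Figure D1:**
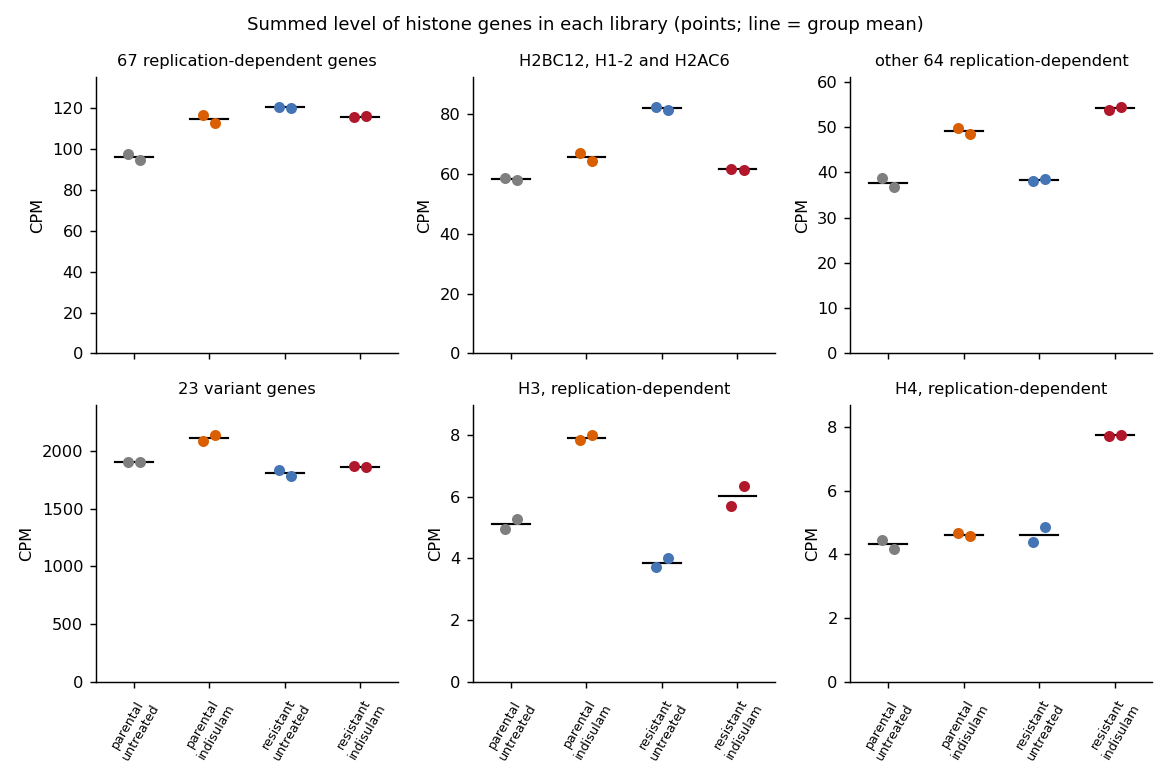
Summed CPM of 6 sets of histone genes in each of the 8 libraries (points, by group; the black line is the group mean; each axis starts at 0). H2BC12, H1-2 and H2AC6 together peak in resistant untreated libraries (82.4 and 81.3 CPM). The other replication-dependent genes are higher on indisulam in both lines, with these genes, which fell on the drug in resistant cells, left out. The H4 sum stands apart in resistant indisulam libraries (7.71 and 7.75 CPM), where H4C8 is its largest part.

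By family, the 5 replication-dependent H1 genes summed to 19.7 ± 0.432 CPM (mean ± SD, n = 2) in parental untreated libraries and 21.9 ± 0.428 CPM on indisulam, and to 23.7 ± 0.325 CPM in resistant untreated and 15.9 ± 0.585 CPM in resistant indisulam libraries, the lowest of the 4 groups. The 13 H3 genes summed to 5.11 ± 0.23 CPM in parental untreated libraries and 7.92 ± 0.125 CPM on indisulam, and to 3.86 ± 0.206 CPM in resistant untreated and 6.03 ± 0.472 CPM in resistant indisulam libraries. The 15 H4 genes summed to 4.31 ± 0.182, 4.61 ± 0.078 and 4.61 ± 0.337 CPM in the first 3 of these groups and to 7.73 ± 0.0239 CPM in resistant indisulam libraries. H4C8 alone had means of 1.62 CPM in resistant untreated and 4.16 CPM in resistant indisulam libraries. Of the 9 tested H4 genes, 2 were called with the drug in that line. The 19 H2B genes went from 46.4 ± 1.44 to 58.6 ± 2.18 CPM with the drug in parental cells, and were at 66.0 ± 0.844 and 64.7 ± 1.28 CPM in resistant cells. The 15 listed H2A genes stayed between 19.7 and 22.2 CPM in all libraries.

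The first comparison asked how the histone genes of parental cells differed after 18 h of indisulam. Of the 37 tested replication-dependent genes, 14 rose and 1 fell, with a median log2 fold change of 0.19, and of the 10 tested variant genes 6 rose and 1 fell, with a median of 0.17. Over all 16661 tested genes, 58.2% were called (31.6% higher and 26.6% lower) with a median of 0.01. The share called was 40.5% of replication-dependent genes, under that of all genes, and it differed with depth: 85.7% of those with a mean of at least 100 reads and 13.0% of those under it were called. The replication-dependent median was 0.09 without parental untreated replicate 2, 0.12 when scaled by library totals alone, 0.07 with no filter on low counts and 0.32 over genes that averaged 1 CPM or more, and the variant median was 0.10 under each of the last 3 settings. Calls are at an adjusted p under 0.05 in edgeR's quasi-likelihood test with Benjamini-Hochberg adjustment over all tested genes.

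H3C6, an H3 gene, had the largest rise among the well-measured replication-dependent genes. It was at 3.13 and 3.28 CPM in parental untreated libraries and at 5.34 and 5.29 CPM on indisulam, a log2 fold change of 0.73 ± 0.086 (SE, n = 2 per group; adjusted p = 1.5e-07). The H2B gene H2BC5 was at 4.57 and 4.14 CPM untreated and 6.72 and 6.59 CPM treated, a log2 fold change of 0.61 ± 0.075 (adjusted p = 2.8e-07). H2BC21, an H2B gene of the chromosome 1 cluster, was at 4.28 and 4.0 CPM untreated and 6.23 and 6.39 CPM treated, also 0.61 ± 0.075 on the log2 scale (adjusted p = 3.2e-07). In none of these 3 genes did the treated and untreated libraries overlap. Smaller rises were measured for H2BC12 (log2 fold change 0.25, adjusted p = 5.7e-06) and H1-2 (0.17, adjusted p = 1.5e-03), and H2AC6 differed by -0.05 (adjusted p = 0.42). H2BC4 was the only replication-dependent gene called lower, at -0.35 (adjusted p = 0.025), a call that was lost without parental indisulam replicate 2 (-0.31) or parental untreated replicate 1 (-0.21).

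Among variant genes, H2AX rose from 231.0 and 221.3 CPM to 271.2 and 261.2 CPM (log2 fold change 0.24 ± 0.031, adjusted p = 8.2e-07). H2AJ, an H2A variant, rose by 0.20 and H2AZ2 by 0.18 on the log2 scale. H3-3B and H3-3A, which both encode H3.3, the H3 variant deposited outside replication, rose by 0.15 and 0.11, and H2AZ1, which like H2AZ2 encodes H2A.Z, rose by 0.16. The calls of H3-3A and H2AZ1 were lost without parental indisulam replicate 2 (0.07 and 0.08), and that of H2AJ without parental untreated replicate 2 (0.14). Among replication-dependent genes, 8 of the 15 calls held whichever 1 library was left out, while H2BC4, H4C8 (0.35), H3C10 (0.46), H2BC6 (0.58), H2AC11 (0.19), H2BC7 (0.96) and H3C12 (1.19) did not. H4C8 was not called without parental indisulam replicate 1 (0.27) or parental untreated replicate 2 (0.31), H2BC6 without parental indisulam replicate 1 (0.43) and H3C10 without parental indisulam replicate 2 (0.36). H2AC11 and H2BC7 were not called without any 1 of 6 libraries (0.17 to 0.19 and 0.56 to 1.51 over all that were left out), nor H3C12 without any 1 of 4 (0.6 to 2.18).

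The second comparison set resistant cells kept on indisulam against resistant cells off the drug. Here 16 of the 37 replication-dependent genes rose and 3 fell, with a median log2 fold change of 0.45 (0.35 to 0.50 as each library was left out). Of the 10 variant genes 4 rose and 2 fell, with a median of 0.03, which was 0.07 without resistant untreated replicate 1 and 0.17 without resistant untreated replicate 2. All genes gave 50.7% called (24.9% higher and 25.8% lower) and a median of 0.01. The share called was 51.4% of replication-dependent genes, close to the background, but 16 of the 19 calls were in 1 direction. The 3 genes that fell were H1-2, H2AC6 and H2BC12, the 3 most abundant ones.

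H1-2, the most abundant linker histone gene of the clusters, went from 23.1 and 22.5 CPM in resistant untreated libraries to 14.9 and 15.4 CPM on indisulam, a log2 fold change of -0.59 ± 0.046 (adjusted p = 2.0e-10). H2AC6, an H2A gene, went from 13.5 and 13.8 CPM to 9.45 and 9.60 CPM, a log2 fold change of -0.52 ± 0.055 (adjusted p = 3.0e-08). H2BC12 went from 45.8 and 45.0 CPM to 37.4 and 36.3 CPM, a log2 fold change of -0.30 ± 0.038 (adjusted p = 4.3e-07). For H1-2 and H2AC6 the resistant indisulam libraries were the lowest of all 8, while for H2BC12 they stayed above every parental library.

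The largest rise among well-measured genes was that of the H4 gene H4C8. It was at 1.57 and 1.68 CPM in resistant untreated libraries and at 4.12 and 4.20 CPM on indisulam, a log2 fold change of 1.36 ± 0.11 (adjusted p = 5.4e-10). All 6 other libraries lay at or under 1.99 CPM. A long non-coding RNA gene on the opposite strand covers 13.3% of the exon bases of H4C8, and its reads cannot be told apart if strand was not used in counting. H3C6 rose from 2.28 and 2.46 CPM to 3.78 and 4.25 CPM (log2 fold change 0.77, adjusted p = 8.3e-07), and H2BC21 rose from 4.04 and 4.30 CPM to 6.63 and 6.42 CPM (0.65, adjusted p = 3.6e-07). H2BC15, H2AC11 and H2BC11, a pair of H2B genes and an H2A gene of the chromosome 6 cluster, rose by 0.70, 0.66 and 0.46 on the log2 scale, and H2AC25 rose by 0.41. H4C16, an H4 gene that lies apart from the clusters on chromosome 12, rose by 0.42, a call that was lost without resistant indisulam replicate 1 (0.40), resistant indisulam replicate 2 (0.43) or resistant untreated replicate 1 (0.37). The call of H3C10 (0.51) was lost without resistant indisulam replicate 2 (0.44) or resistant untreated replicate 1 (0.41).

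**Figure D2:**
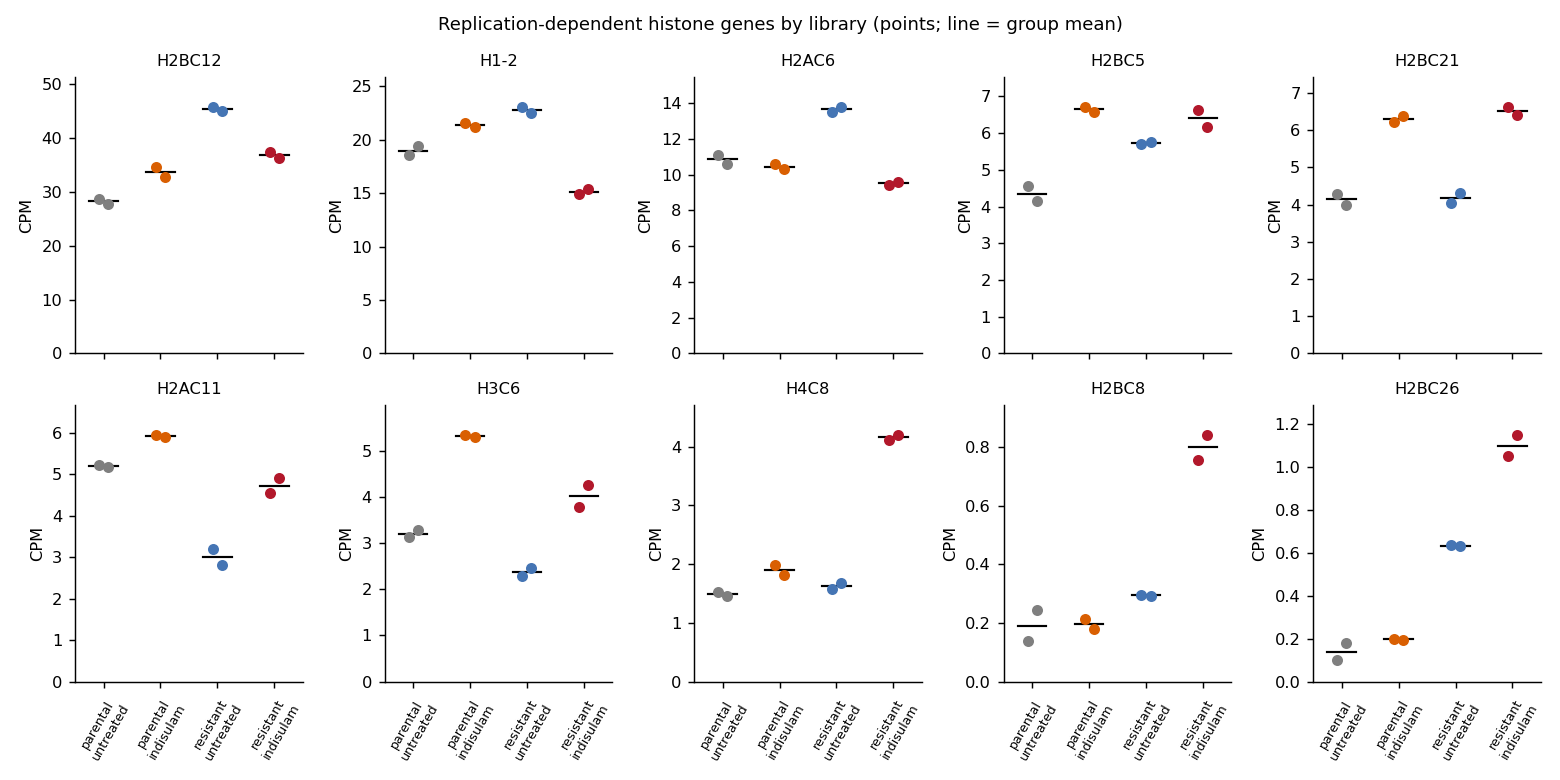
CPM of 10 replication-dependent histone genes in each library (points, by group; the black line is the group mean; each axis starts at 0 and has its own scale). H2BC12, H1-2 and H2AC6 are highest in resistant untreated libraries, and H4C8 and H2BC8 are highest in resistant indisulam libraries, at 4.12 to 4.20 and 0.756 to 0.842 CPM.

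Several genes of low count rose as well; they are named after their values were seen. H2BC8 was at 0.297 and 0.293 CPM in resistant untreated libraries and at 0.756 and 0.842 CPM on indisulam (log2 fold change 1.45 ± 0.25, adjusted p = 3.2e-05). H2BC6, also an H2B gene, rose by 1.10, and H2BC18 by 1.09 on the log2 scale. The sequence of H2BC18 limits its value, since 50.3% of its stretches of 100 bases occur elsewhere. H2BC26 rose by 0.81. H2BC7 (1.48), H3C12 (1.33) and H2AC15 (1.22), with means of 14.1, 10.8 and 16.9 reads, were called as well, H3C12 having passed the filter only through indisulam libraries. The call of H2BC7 was lost without resistant indisulam replicate 1 (1.21), that of H2AC15 without resistant indisulam replicate 1 (1.14) or resistant untreated replicate 2 (1.01), and that of H3C12 without any 1 of 4 libraries (1.27 to 1.38 over all that were left out). With a mean of at least 100 reads, 9 genes rose and 3 fell of 14; under it, 7 rose and 0 fell of 23. Among the 27 tested replication-dependent genes with no shared stretch of 100 bases, 11 rose and 2 fell.

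The variant genes of resistant cells moved less together. H2AJ rose from 14.6 and 13.5 CPM to 20.6 and 19.4 CPM (log2 fold change 0.51 ± 0.056, adjusted p = 1.2e-07). H1-10, a linker histone gene outside the clusters, rose from 28.5 and 29.9 CPM to 38.9 and 39.9 CPM (0.44 ± 0.040, adjusted p = 2.9e-09); its antisense gene H1-10-AS1 covers 22.8% of its exon bases. H2AX rose from 167.1 and 175.1 CPM to 217.7 and 211.6 CPM (0.33 ± 0.032, adjusted p = 9.0e-09). H3-3A fell by 0.11 on the log2 scale, a call that was lost without resistant indisulam replicate 2 (-0.08) or resistant untreated replicate 1 (-0.07). H2AZ1, H2AZ2 and H3-3B differed by 0.02, 0.03 and 0.01, with adjusted p = 0.59, 0.49 and 0.78. H3-7, which had passed the filter through the treated libraries alone, was called at 1.30, and not without resistant indisulam replicate 2 (1.21) or resistant untreated replicate 1 (1.31).

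The third comparison set the untreated lines against each other. Resistant cells off the drug had 9 replication-dependent genes higher and 6 lower than parental cells (median log2 difference 0.11), and 3 variant genes higher and 4 lower (median -0.01). All genes gave 60.1% called (30.3% higher and 29.9% lower) and a median of -0.02, against 40.5% of replication-dependent genes. That share differed with depth, being 71.4% with a mean of at least 100 reads and 21.7% under it. The replication-dependent median was 0.20 without parental untreated replicate 1, 0.04 without parental untreated replicate 2, 0.06 without resistant untreated replicate 1 and 0.07 with no filter or over genes that averaged 1 CPM or more, the latter with a variant median of -0.10. This comparison shares its libraries with the drug comparisons of both lines, so the values are given side by side without a count of overlap.

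H2BC12 was higher in all resistant untreated libraries (45.8 and 45.0 CPM) than in parental untreated libraries (28.7 and 27.8 CPM), a log2 difference of 0.69 ± 0.038 (adjusted p = 1.0e-13). H2AC6 and H1-2 were higher by 0.33 and 0.26 (adjusted p = 6.0e-06 and 1.4e-05), and H2AC25, H2BC4 and H2BC5 by 0.55, 0.48 and 0.40. H2AC11 was lower, at 3.19 and 2.80 CPM against 5.23 and 5.18 CPM (log2 difference -0.79 ± 0.087, adjusted p = 2.9e-08), and H2BC15, H3C10 and H3C6 were at log2 differences of -0.58, -0.47 and -0.44; the call of H3C10 was lost without resistant untreated replicate 1 (-0.37). Of the low-count genes, H4C9 was at 0.176 and 0.246 CPM against 0.512 and 0.590 CPM (log2 difference -1.39 ± 0.26, adjusted p = 7.0e-05). H4C5 (1.44) and H4C14 (0.75), the latter a gene all of whose stretches of 100 bases occur elsewhere, were called higher. The call of H4C5 was lost without resistant untreated replicate 1 (1.08). That of H4C14 was lost without parental untreated replicate 1 (0.71) or resistant untreated replicate 2 (0.42). H4C5 passed the filter only through the resistant line, so that a difference was built into its selection.

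A gene pair on chromosome 1 was higher in the resistant line whether or not the drug was present. H2BC26, an H2B gene, was at 0.1 and 0.178 CPM in parental untreated and 0.2 and 0.194 CPM in parental indisulam libraries, and at 0.635 and 0.631 CPM and 1.05 and 1.15 CPM in the corresponding resistant libraries. Between the lines its log2 difference was 2.18 ± 0.27 without indisulam (adjusted p = 2.4e-07) and 2.49 ± 0.24 with it (adjusted p = 2.0e-09). H2AC25, the H2A gene whose start site lies 230 bases away on the other strand, was at 2.92 and 2.46 CPM and 3.57 and 3.58 CPM in parental libraries and at 3.71 and 4.20 CPM and 5.32 and 5.18 CPM in resistant ones, a log2 difference of 0.55 in both conditions. Both genes were higher in every resistant library than in the parental libraries of the same treatment. H2BC26 belongs to the genes named after their values were seen.

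Among variant genes, H2AJ (-0.66), H2AZ2 (-0.43), H2AX (-0.40) and H2AZ1 (-0.16) were lower in the resistant line, and H1-10 was higher (0.23). H3-3A and H3-3B differed by -0.03 and 0.00, with adjusted p = 0.48 and 0.99. H3-7, an H3 gene of which 65.8% of the stretches of 100 bases occur elsewhere, had 1 read in the parental untreated libraries together and 15 in the resistant untreated ones, a ratio of 23.3 after scaling (95% exact interval 3.59 to 982.9, counting error only). H3-7 passed the filter only through the resistant indisulam libraries.

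**Figure D3:**
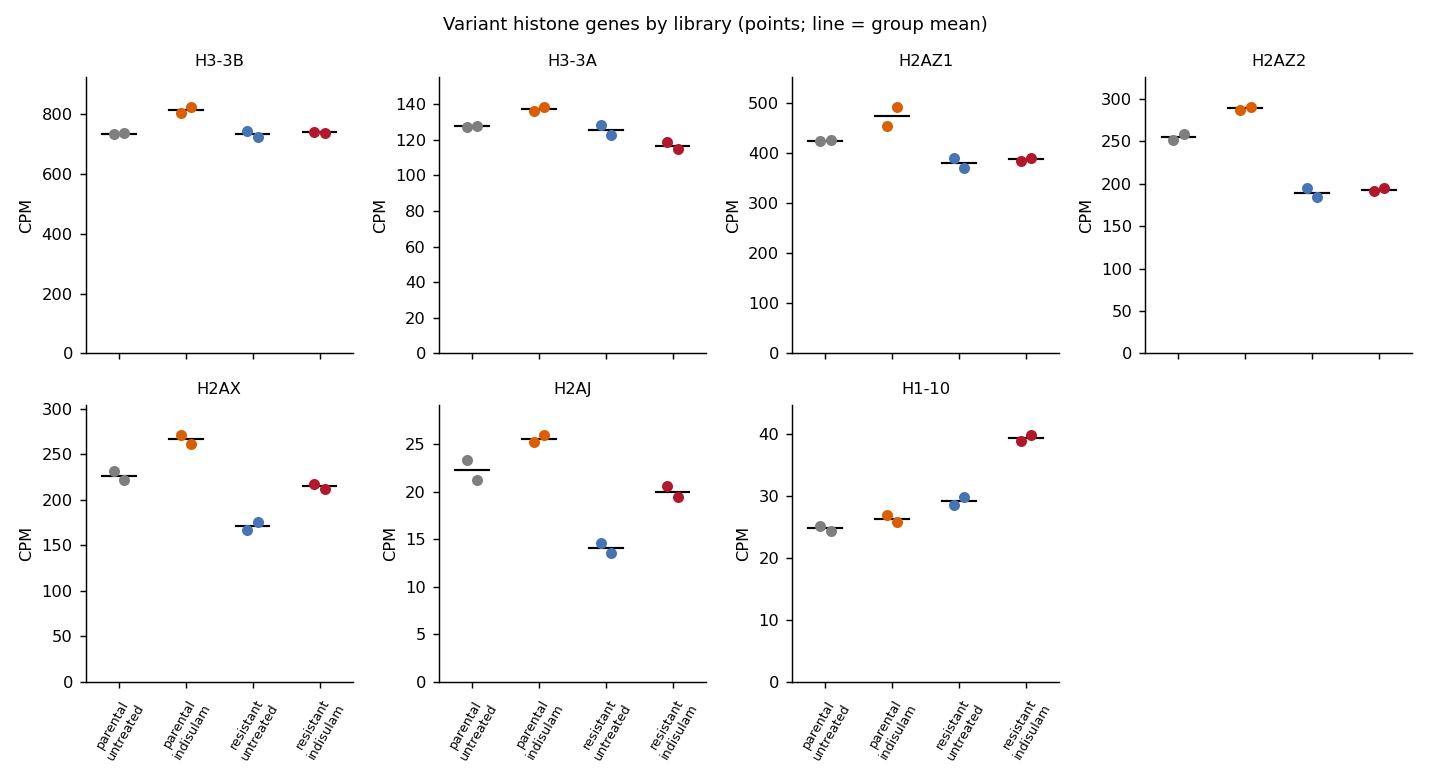
CPM of 7 variant histone genes in each library (points, by group; the black line is the group mean; each axis starts at 0 and has its own scale). H2AZ2 is lower in all resistant libraries, and H3-3B stays within 724.3 to 825.5 CPM.

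With both lines on indisulam, 13 replication-dependent genes were higher and 7 lower in resistant cells (median log2 difference 0.24), and 3 variant genes were higher and 6 lower (median -0.26). All genes gave 69.5% called (34.6% higher and 34.9% lower) and a median of 0.00, against 54.1% of replication-dependent genes. That share differed with depth, being 78.6% with a mean of at least 100 reads and 39.1% under it. The replication-dependent median was 0.41 without parental indisulam replicate 1, 0.15 without parental indisulam replicate 2 and 0.04 over genes that averaged 1 CPM or more. H4C8 was higher, at 4.12 and 4.20 CPM against 1.99 and 1.82 CPM (log2 difference 1.13 ± 0.11, adjusted p = 1.8e-09). H2BC8 was at 0.756 and 0.842 CPM against 0.213 and 0.181 CPM (2.02 ± 0.26, adjusted p = 3.4e-07). The H4 gene H4C5 was at 0.460 and 0.354 CPM against 0.107 and 0.0646 CPM, a log2 difference of 2.2. H4C5 passed the filter only through the resistant line, so that a difference was built into its selection. H1-2 was lower, at 14.9 and 15.4 CPM against 21.6 and 21.2 CPM (-0.50 ± 0.045, adjusted p = 8.9e-10), the opposite of its difference off the drug. H2AC6 was lower by a log2 difference of -0.13, a call that was lost without any 1 of 6 libraries (-0.14 to -0.10 over all that were left out), and H2BC12 was higher by 0.13. H2BC4 and H2AC25 were higher by 0.56 and 0.55, and H2BC15, H3C10, H3C6 and H2AC11 were at log2 differences of -0.42, -0.42, -0.39 and -0.32. The call of H2BC15 was lost without resistant indisulam replicate 1 (-0.29), and that of H3C10 without it (-0.37) or without parental indisulam replicate 2 (-0.32). H1-4, a linker histone gene with a mean of 47.9 reads, was higher by 0.62, a call that was lost without parental indisulam replicate 2 (0.48) or resistant indisulam replicate 2 (0.25). H4C16 (0.54) and H2BC18 (1.26) were higher and H4C9 (-0.94) was lower; H2BC6 (0.37), H2AC8 (0.60) and H1-5 (1.28) were called higher as well, but lost that call without 3, 4 and 2 libraries in turn (0.23 to 0.52, 0.55 to 0.69 and 0.94 to 1.77 over all that were left out).

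The variant genes called between the untreated lines differed in the same directions on the drug, and the H3.3 genes were called in addition. H1-10 was higher by 0.58 on the log2 scale. H2AZ2, H2AJ, H2AX and H2AZ1 were lower, with log2 differences of -0.58, -0.36, -0.31 and -0.29. H3-3A and H3-3B were lower as well (-0.24 and -0.14, adjusted p = 2.7e-07 and 1.3e-04). H3-7 had 2 reads in parental and 44 in resistant indisulam libraries, a ratio of 20.5 after scaling. It passed the filter only through these resistant libraries, so that a difference was built into its selection. Of its stretches of 100 bases, 65.8% occur elsewhere.

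The last comparison asked whether the drug response itself differed between the lines, by the interaction term (response of resistant minus response of parental cells). The parental response was to 18 h of drug, and the resistant one set culture without a break against withdrawal. Line and exposure therefore cannot be told apart in this term. The interaction was called for 10 of 37 replication-dependent genes (6 higher and 4 lower, median 0.16) and for 6 of 10 variant genes (2 higher and 4 lower, median -0.04). All genes gave 50.1% called (22.7% higher and 27.5% lower) and a median of 0.01, against 27.0% of replication-dependent genes. As each library was left out, the replication-dependent median ranged from 0.13 (without parental untreated replicate 1) to 0.37 (without resistant indisulam replicate 1), and it was 0.28 when scaled by library totals alone. The variant median changed sign, ranging from -0.13 without parental untreated replicate 1 to 0.08 without parental indisulam replicate 1, and it was 0.07 under library totals alone. H1-2 had the most negative difference among called genes, -0.76 ± 0.062 (adjusted p = 1.8e-09), since it rose in parental and fell in resistant cells. H2BC12 (-0.56 ± 0.054, adjusted p = 2.1e-08) had the same pattern, H2AC6 (-0.47 ± 0.076, adjusted p = 2.2e-05) differed by -0.05 in parental and fell in resistant cells, and H2BC5 (-0.46 ± 0.11, adjusted p = 1.1e-03) rose in parental cells and differed by 0.15 in resistant cells (adjusted p = 0.10). H4C8 had the largest positive difference among well-measured genes, 1.01 ± 0.17 (adjusted p = 2.2e-05), and H2BC8 (1.39), H2BC18 (1.15) and H2AC15 (1.33) exceeded it at lower counts. The responses of H2AC11 (0.47) and H4C16 (0.53) also differed, the latter call being lost without any 1 of 4 libraries (0.45 to 0.6 over all that were left out). The call of H2BC8 was lost without parental untreated replicate 2 (0.93), and that of H2AC15 without any 1 of 7 libraries (1.14 to 1.63).

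Among the variant genes, H1-10 (0.34) and H2AJ (0.30) had positive differences and H3-3A (-0.21), H2AZ2 (-0.15), H3-3B (-0.14) and H2AZ1 (-0.13) negative ones. This count fell from 6 to 3 without resistant untreated replicate 1, since H2AZ1 (-0.07), H2AZ2 (-0.08) and H3-3B (-0.09) were then not called. H2AZ2 was also not called without resistant indisulam replicate 1 (-0.12), H3-3B without parental indisulam replicate 2 (-0.10) or resistant indisulam replicate 2 (-0.11), and H2AZ1 without any 1 of 6 libraries (-0.17 to -0.05). The response of H2AX differed between the lines by 0.09 (adjusted p = 0.090). When scaled by library totals alone, H3-3A (-0.10), H2AZ2 (-0.04), H3-3B (-0.02) and H2AZ1 (-0.02) were not called and H2AX was (0.21). For the H3 genes H3C6 and H3C10 the difference of the responses was 0.04 in each (adjusted p = 0.82 and 0.87), with standard errors of 0.13 and 0.20.

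**Figure D4:**
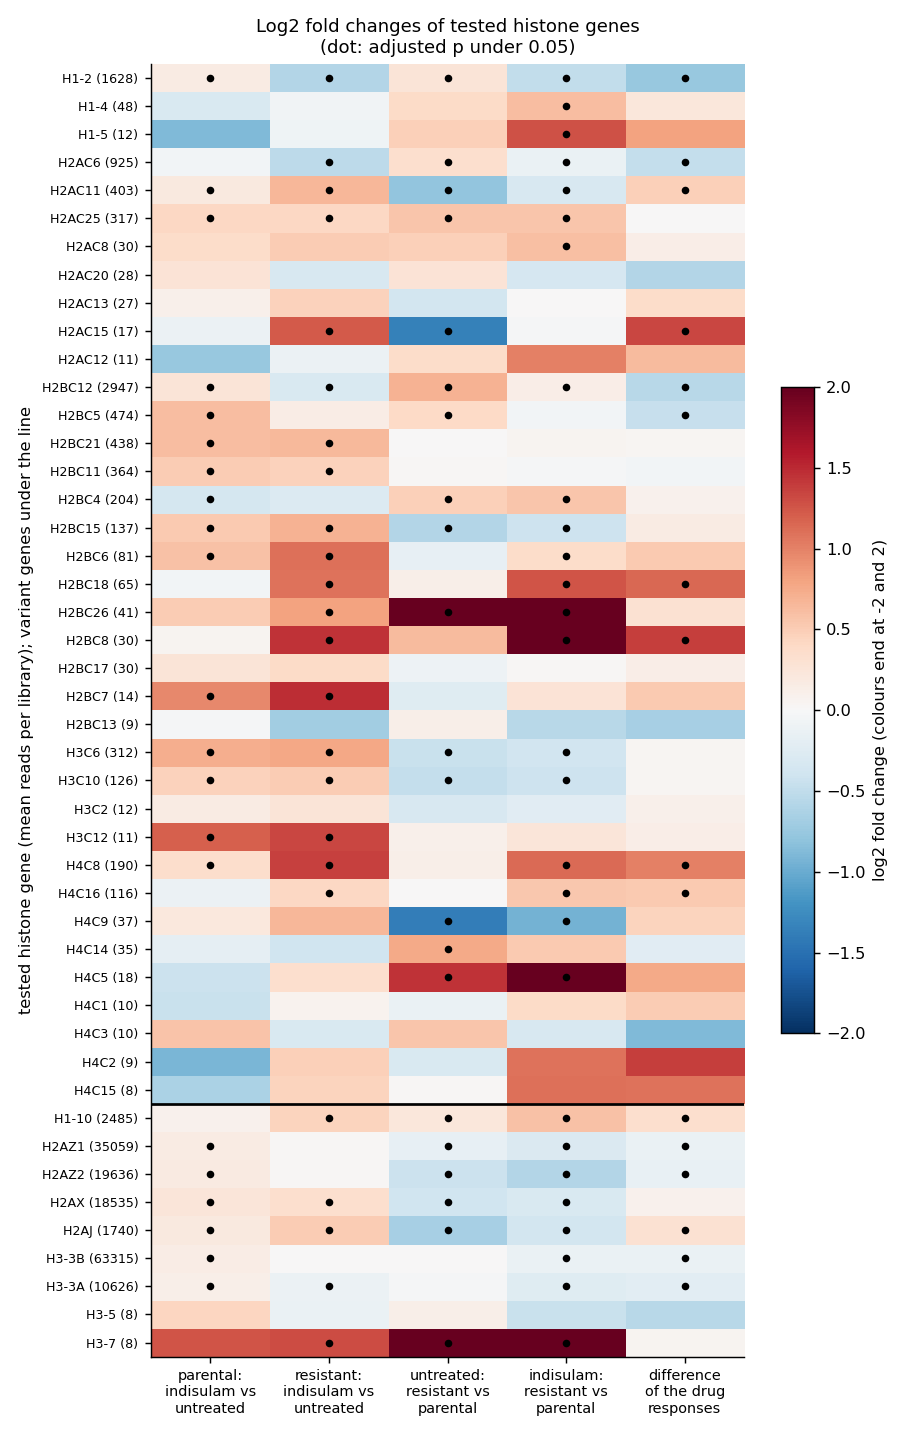
Log2 fold changes of tested histone genes (rows, with mean reads per library in brackets, grouped by family; variant genes under the line) in the 5 comparisons (columns; red higher, blue lower, colours end at -2 and 2; black dots mark an adjusted p under 0.05). Among replication-dependent genes, dots in the drug columns are on red cells for 14 genes in the parental and 16 in the resistant line, with H1-2, H2AC6 and H2BC12 blue in the latter.

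The tested replication-dependent genes were also split by the extent of their annotated 3′ end. In 15 tested genes the annotation reached at least 100 bases past the stem-loop, and in 21 it ended closer to it; H3C6 had no match. Of the 15, 8 rose and 1 fell with the drug in parental cells and 10 rose and 1 fell in resistant cells. Of the 21, 5 rose and 0 fell in parental cells and 5 rose and 2 fell in resistant cells. H4C8 (annotated to 7522 bases past the loop on the genome), H2BC21 (1729 bases), H2BC26 (4551 bases) and H2AC6 (14432 bases) belong to the first kind. H2BC12, H1-2, H2AC11 and H2BC8, annotated to 5, 4, 5 and 18 bases past it, belong to the second. With the drug in resistant cells H2AC6 fell (-0.52) while H2AC11 (0.66) and H2BC8 (1.45) rose, so each kind held genes of both directions. The first kind had a median of 137.1 reads per library and of 1878 bases of exon, and the second kind had 18.4 reads and 493 bases. The part of depth in this difference was not tested.

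Many H2A and H2B genes are arranged head to head around a shared promoter region. There were 12 such pairs with start sites under 300 bases apart, of which 8 had both genes tested. The windows between the start sites of 3 pairs are given on the plus strand of GRCh38, because in the first 1 gene dominated, in the second both genes were higher in the resistant line and in the third 1 gene rose with the drug. Capitals mark matches on either strand to the TATA box, searched as TATAAA. They also mark the CCAAT box, searched by the 5 letters of its name, and the octamer ATTTGCAT, and overlapping matches run together.
H2BC12 to H2AC12 (chr6:27146856-27147105, plus strand): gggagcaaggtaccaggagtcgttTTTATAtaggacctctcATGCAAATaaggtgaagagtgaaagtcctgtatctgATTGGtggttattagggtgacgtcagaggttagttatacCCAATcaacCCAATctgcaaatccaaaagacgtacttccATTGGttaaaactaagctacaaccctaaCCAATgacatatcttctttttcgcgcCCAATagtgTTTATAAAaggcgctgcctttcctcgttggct
H2AC25 to H2BC26 (chr1:228457874-228458102, plus strand): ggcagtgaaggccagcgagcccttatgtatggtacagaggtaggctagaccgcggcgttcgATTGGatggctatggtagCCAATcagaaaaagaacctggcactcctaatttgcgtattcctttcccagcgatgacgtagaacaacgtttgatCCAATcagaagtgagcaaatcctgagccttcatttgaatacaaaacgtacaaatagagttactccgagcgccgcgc
H2BC8 to H2AC8 (chr6:26216689-26216920, plus strand): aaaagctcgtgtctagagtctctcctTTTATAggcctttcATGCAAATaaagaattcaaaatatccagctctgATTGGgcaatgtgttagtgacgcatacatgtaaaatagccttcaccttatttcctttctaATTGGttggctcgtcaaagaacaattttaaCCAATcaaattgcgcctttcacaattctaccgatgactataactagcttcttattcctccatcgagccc

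The H2BC12 to H2AC12 window held 3 TATA, 6 CCAAT and 1 octamer matches, the H2BC8 to H2AC8 window 1, 3 and 1, and the H2AC25 to H2BC26 window 0, 3 and 0. In RefSeq promoters (GRCh38.p14, 250 bases before to 50 after the start, 67 promoters of 63 replication-dependent genes matched), the octamer was found in 75% of H2B, 68.8% of H2A and 0 of 13 H4 promoters, against 1.77% of all 35116 promoters. The TATA box was found in 67.2% and the CCAAT box in 85.1% of replication-dependent promoters, against 11.5% and 34.6% of all promoters. The 24 promoters of 20 variant genes held them in 29.2% and 87.5%, and the CCAAT box was found in 23.1% of the H4 promoters and in all promoters of the other replication-dependent families. These letters describe the sequence and were not tested for use.

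Genes that share a window could differ in level, and in some pairs only 1 gene was called. Whether the responses of partners differed was not tested. In parental untreated libraries H2BC12 was at 57.1 CPM per kb and H2AC12, on the other side of its window, at 0.293 CPM per kb. H2BC8 and H2AC8 were at 0.389 and 0.501 CPM per kb, but with the drug in resistant cells H2BC8 rose by 1.45 on the log2 scale, whereas H2AC8 differed by 0.50 (adjusted p = 0.092). H2BC11 and H2AC11 both rose in that comparison (0.46 and 0.66), as did H2AC25 and H2BC26 (0.41 and 0.81) and H2AC15 and H2BC15 (1.22 and 0.70). Of the 8 pairs, 3 had both genes called in 1 direction there, 4 had 1 gene called and 1 had neither called. In that comparison 51.4% of the tested replication-dependent genes and 50.7% of all tested genes were called. Whether partners were called together more often than other genes was not tested. No pair was called in opposite directions in the drug comparisons or between the untreated lines. On the drug, H2BC4 was higher and H2AC6 lower in resistant cells (0.56 and -0.13), the latter being the call that leaving out a library ended.

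S phase genes and genes that act on histone mRNA or on newly made histones were described beside the histone genes. Of all tested genes, 31.6% were higher and 26.6% lower with the drug in parental cells and 24.9% and 25.8% in resistant cells. Between the lines these shares were 30.3% and 29.9% off the drug and 34.6% and 34.9% on it. For the difference of the responses they were 22.7% and 27.5%. Each gene of these lists averaged at least 100 reads per library, and the part of depth in their counts was not tested. A list of 22 S phase and DNA replication genes had 1 higher and 14 lower with the drug in parental cells (median -0.17). In resistant cells 0 were higher and 20 lower (median -0.46), while 16 replication-dependent histone genes rose, 3 fell and 18 were not called. The summed level of the 67 listed replication-dependent genes was 120.2 ± 0.425 CPM off the drug and 115.6 ± 0.197 CPM on it in that line. The largest fall of the S phase list in resistant cells was that of CDC45, a component of the replicative helicase complex, at -0.82. MCM2, a helicase subunit, PCNA, the sliding clamp, and CCNE2, cyclin E2, changed by -0.46, -0.58 and -0.50. Off the drug, 19 of the 22 were higher and 1 lower in resistant than in parental cells (median 0.28), and on the drug 8 were higher and 7 lower (median 0.04). The difference of the responses was called higher for 1 and lower for 14 of them (median -0.28). H1-2, H2AC6 and H2BC12 were the replication-dependent histone genes that were called higher in resistant untreated cells and lower with the drug in that line, the directions of most of the S phase list; both comparisons share the resistant untreated libraries. In bulk RNA a smaller share of cells in S phase and less RNA per cell cannot be told apart, and the part of the cell cycle in the histone values was not tested.

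Of 15 genes for transcription, processing and turnover of histone mRNA, 6 were higher and 4 lower with the drug in parental cells and 2 were higher and 6 lower in resistant cells (medians 0.04 and -0.07). Over all tested genes, 31.6% were higher and 26.6% lower in parental cells and 24.9% and 25.8% in resistant cells. SLBP, the stem-loop binding protein, was at 127.8 and 130.5 CPM in parental untreated, 133.9 and 137.1 CPM in parental indisulam, 111.7 and 108.9 CPM in resistant untreated and 91.8 and 93.1 CPM in resistant indisulam libraries. In resistant cells it fell with the drug by 0.25 on the log2 scale (SE 0.030, adjusted p = 1.7e-07), and with both lines on the drug its log2 difference was -0.55. NPAT and CASP8AP2, which act in histone gene transcription at histone locus bodies, changed by -0.33 and -0.37 in resistant cells and differed by -0.04 and -0.02 in parental cells. ERI1, an exonuclease that trims histone mRNA ends, had the largest change in parental cells, a rise of 0.43, and SRRT, a cap-complex partner, the largest in resistant cells, a change of -0.49. TUT7, a uridylyl transferase of histone mRNA decay, had the largest difference between the lines, -0.46 off the drug and -0.75 on it. Off the drug 3 of the list were higher and 6 lower, on the drug 2 and 9, and the difference of the responses was called higher for 1 and lower for 10. In these comparisons 60.1%, 69.5% and 50.1% of all tested genes were called.

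Of 17 histone chaperone genes, 11 rose and 3 fell with the drug in parental cells, and 4 rose and 9 fell in resistant cells (medians 0.09 and -0.09). Over all tested genes, 31.6% rose and 26.6% fell in parental cells and 24.9% rose and 25.8% fell in resistant cells. The replication-coupled chaperones CHAF1A and ASF1B fell in both lines (-0.11 and -0.45 in parental, -0.33 and -0.36 in resistant cells). NASP, which binds soluble H3 and H4, rose by 0.07 in parental cells (-0.00 when scaled by library totals alone) and changed by -0.34 in resistant cells. HJURP, the chaperone of the centromeric H3 variant CENP-A, rose by 0.59 in resistant cells, and CENPA itself rose by 0.53 in parental and by 0.88 in resistant cells. ASF1A had the largest difference between the treated lines, -0.58. Off the drug 5 chaperone genes were higher and 7 lower, on the drug 2 and 12, and the difference of the responses was called higher for 2 and lower for 10. In these comparisons 60.1%, 69.5% and 50.1% of all tested genes were called. Of the histone genes whose symbols fall outside the naming rule, MACROH2A1 rose by 0.08 in parental cells and differed by -0.03 in resistant cells (adjusted p = 0.43), and MACROH2A2 had 0 reads.

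**Figure D5:**
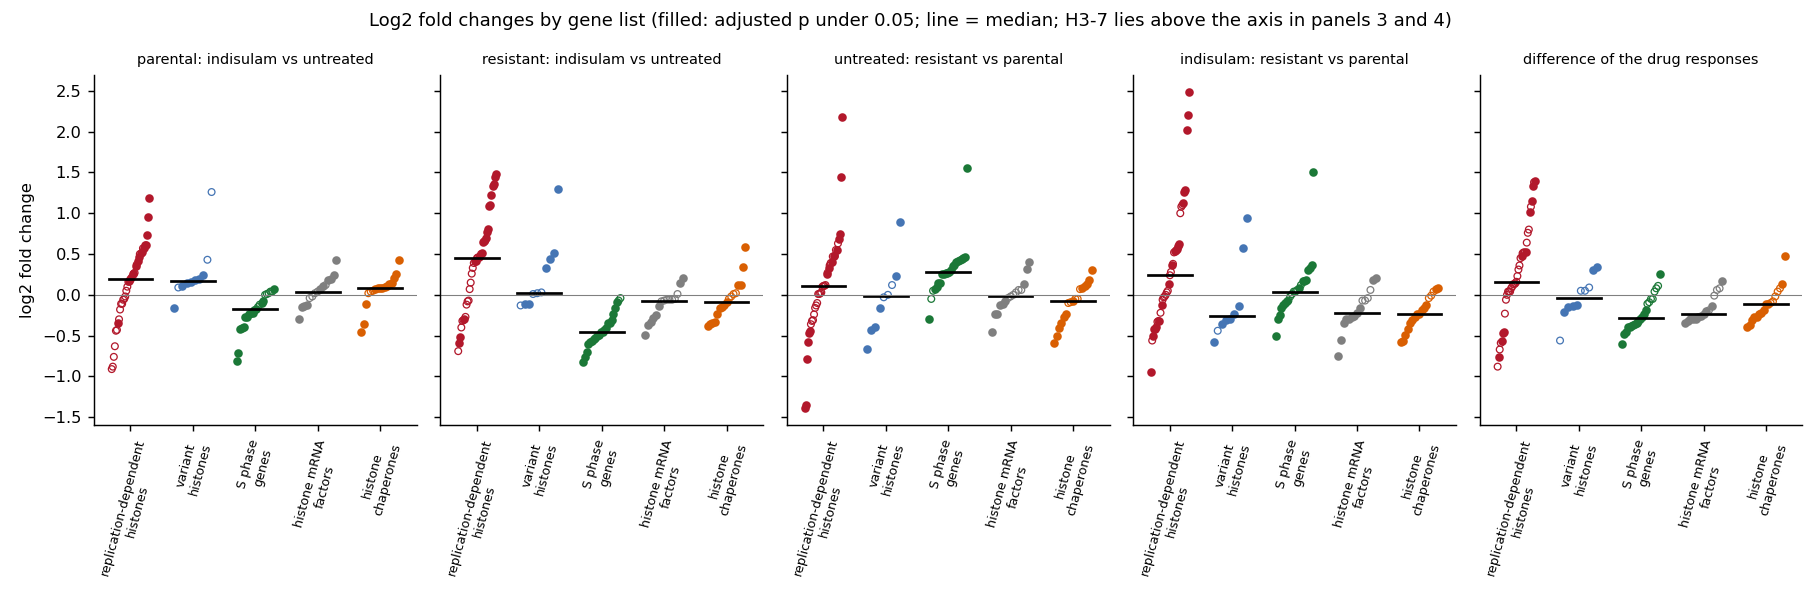
Log2 fold changes of the tested replication-dependent (37) and variant (10) histone genes and of 3 gene lists in the 5 comparisons (each point is a gene; filled points have an adjusted p under 0.05; the black line is the median; H3-7 lies above the axis in the 2 comparisons between lines). With the drug in resistant cells the median was 0.45 for replication-dependent histone genes and -0.46 for S phase genes. H1-2, H2AC6 and H2BC12, the most abundant replication-dependent genes, fell there.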

How the data were processed

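The libraries were prepared from poly(A)+ RNA with a stranded kit and sequenced as paired-end reads. The authors trimmed reads with SeqPurge, mapped them with HISAT2 2.2.1 to GRCh38 and, per the submitters' processing notes, used Picard and HTSeq; the annotation release and strand setting of the counting are not given in the sources used here. They deposited gene-level read counts, not normalised, in 1 table for each of the 8 libraries, with 9 rows of unassigned reads at the end that were left out of library sizes and tests. Where strand was not used, a gene and its antisense partner cannot be told apart, which concerns at least 10% of the exon bases of the tested genes H1-10, H2BC4, H2BC6 and H4C8 and 1.3% to 9.8% of those of H2AZ1, H2BC18, H3-7, H3-3B and H3-3A.

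Counts were tested with edgeR 4.0.16 (R 4.3.3): filterByExpr with a minimum count of 10, TMM scaling, 4 group means over all 8 libraries with 4 residual degrees of freedom, robust quasi-likelihood tests of 5 comparisons and Benjamini-Hochberg adjustment over 16661 genes. DESeq2 1.42.0, other scalings, filters and fits, and leaving out each library served as alternatives, and the fit was tested on simulated data. An exact permutation test of 2 against 2 libraries cannot go under 0.333. Genes were matched to GENCODE release 44, sequences and stem-loop sites were read from GRCh38 with Python 3.11.15, and promoters come from RefSeq. Named genes were, in each comparison and class, the called members with the 3 highest and the 3 lowest log2 fold changes at a mean log2 CPM of at least 0, with 14 genes always named, of which 1 is counted in every total but not reported here; low-count members outside this rule were chosen after their values were seen. The histone genes and all gene lists were chosen with earlier results of these data known.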

Additional observations from a re-analysis of the deposited data

Results flagged for a closer look

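The drug response of 13 named histone genes differed between the lines by the test of the difference itself (edgeR's interaction term, adjusted over all tested genes). Among replication-dependent genes, the log2 difference (resistant minus parental response) was negative for H1-2 (-0.76), H2BC12 (-0.56), H2AC6 (-0.47) and H2BC5 (-0.46), and positive for H4C8 (1.01), H4C16 (0.53) and H2AC11 (0.47). Among variant genes it was negative for H3-3A (-0.21), H2AZ2 (-0.15), H3-3B (-0.14) and H2AZ1 (-0.13), and positive for H1-10 (0.34) and H2AJ (0.30). H1-2 and H2BC12 were called in opposite directions in the 2 lines, with no call lost as each library was left out. H3-3A was so called as well, but its parental call was lost without parental indisulam replicate 2 (0.07) and its resistant call without resistant indisulam replicate 2 (-0.08) or resistant untreated replicate 1 (-0.07), and under library totals alone neither of these (0.04 and -0.06) nor the difference (-0.10) was called. The values of H4C16, H2AZ1, H2AZ2 and H3-3B rest on single libraries, as given in the report. Genes were named partly by this call, so the 13 do not give a share. Of all 47 tested histone genes, 16 were called for this difference (34.0%), under the 50.1% of all tested genes. The exposures also differed, being 18 h in parental cells and culture without a break in resistant cells.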

How the results depend on the processing

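All 10 of 10 counts of called histone genes stayed within 1.5 times under DESeq2 size factors, library totals alone, no filter on low counts and the replicate block, and 8 of 8 where only the libraries compared were used. Against a change of 0.5 on the log2 scale (glmTreat in edgeR), replication-dependent genes gave 1, 5, 6, 6 and 2 calls and variant genes 0, 0, 3, 4 and 0 for the parental response, the resistant response, the lines off drug, the lines on drug and the difference of the responses; where this count was 0, glmTreat at an unadjusted p under 0.05 gave 0, 1 and 0, edgeR's test against 0 gave 7, 6 and 6 and DESeq2's gave 7, 5 and 6. DESeq2's Wald test called 9 replication-dependent genes in the parental response and 13 between the lines on drug. With a mean CPM of at least 1, fewer genes were tested and 10 replication-dependent genes were called between the lines on drug (5 higher and 5 lower, against 13 and 7). Leaving out 1 library gave 10 to 14, 16 to 20, 13 to 16, 15 to 20 and 8 to 9 replication-dependent calls and 5 to 7, 4 to 6, 7, 9 and 3 to 7 variant calls in that order. The class medians were less stable than the counts. Against the spread between replicates, 8 of 10 medians moved under library totals alone, 7 over genes that averaged 1 CPM or more, 6 with no filter, 4 under DESeq2's Wald test and 31 of 80 as each library was left out, where the filter was applied anew. Of the values of single named genes, 19 lost and 9 gained a call under library totals alone, 13 and 8 over genes that averaged 1 CPM or more, 8 and 1 with no filter and 14 and 0 under DESeq2's Wald test. Under library totals alone the median interaction of all genes moved to 0.125, and NASP in parental cells (-0.00) and PCNA between the lines on drug (0.01) changed sign; the cause was not tested. Replicate numbers do not pair the libraries (correlation of same-numbered deviations -0.192 to 0.137); with the replicate block 15 replication-dependent genes were called in the parental response, as without it, and 1 call of a named gene was lost. Depth limits the 23 tested replication-dependent genes with a mean under 100 reads.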

Other observations

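A pair of H2B pseudogenes of the chromosome 1 cluster, which the naming rule leaves out and which were chosen after their values were seen, had more reads than most of the replication-dependent coding genes. H2BC20P (chr1:149850193-149850772, GRCh38, minus strand) was at 8.25 and 7.98 CPM in parental untreated, 8.90 and 8.42 CPM in parental indisulam, 4.23 and 4.68 CPM in resistant untreated and 7.0 and 7.41 CPM in resistant indisulam libraries. Its log2 fold change with the drug was 0.70 in resistant cells, and its log2 difference between the lines was -0.87 off the drug and -0.26 on it. H2BC19P (chr1:149843041-149843533, plus strand) was at 5.34 and 5.50, 4.31 and 3.71, 3.0 and 3.57, and 4.63 and 4.74 CPM in the same order. It was lower with the drug in parental cells (log2 fold change -0.44) and higher in resistant cells (0.52), a difference of the responses of 0.96. Reads shared between these pseudogenes and coding H2B genes were not measured.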
